A study of Mus musculus with 2 samples.

Results

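The 48 genes described here code for proteins that detect DNA damage or repair it. They are a list of names from known pathways, by a rule that uses no measured level, and were found in the gene tables by identifier: 48 of 43346 mouse genes, or of 21460 protein-coding genes of the nuclear genome. By role they comprised 6 genes of damage signalling, 8 of end joining, 12 of homologous recombination, 4 of the Fanconi anaemia pathway, 3 of mismatch repair, 8 of base excision repair and 7 of nucleotide excision repair. The samples were total RNA from the forebrain of B6NCrl mouse embryos at embryonic day 13.5, healthy, with males and females pooled. There was 1 group with 2 biological replicates and 1 library each, with no treatment, mutant or second tissue. The starting amount was 10 ng of RNA, and the tables held 35378462 expected counts for replicate 1 and 36793284 for replicate 2.

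Cells repair DNA by several routes that suit different lesions. A broken chromosome is sensed by large kinases and is then either joined end to end or copied from the sister chromatid by homologous recombination, which needs a replicated chromosome. Damaged single bases are cut out by glycosylases and replaced in base excision repair, bulky lesions are cut out with a stretch of the strand in nucleotide excision repair, and copying errors are removed by mismatch repair. The forebrain at this age holds dividing progenitors beside newly born neurons, and inherited loss of several of these genes causes microcephaly or neurodegeneration.

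Levels are given as TPM, a level per length that can be compared between genes. Differences between pathways and between libraries are of log2(TPM + 1), and ratios of 2 partner genes are log2 of the ratio of their TPM. The design has no second condition to test, and the smallest p that an exact sign test could reach with 2 libraries is 0.5, so values are given for each library and as mean ± SD (n = 2). The chi-square statistic of the counts over genes was 10.8 per degree of freedom, so the libraries differed by more than sampling noise. All 8 forebrain markers were at 1 TPM or more in both libraries. Of 8 hindbrain and spinal cord markers only Gbx2, which the thalamus also expresses, reached that level. The marker lists for progenitors (6 of 6 genes), neurons (6 of 6), red blood cells (6 of 6), endothelium (4 of 4) and microglia (4 of 5) were also detected. Their summed levels were 2353 and 2381 TPM for progenitors, 2383 and 2248 for neurons and 11852 and 11141 for red blood cells. They were 61.3 and 66.6 TPM for endothelium and 36.0 and 37.3 for microglia. In such bulk tissue, fewer cells of a type and less RNA per cell cannot be told apart, and the part of each cell type in the levels below was not tested.

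All 48 repair genes were detected in both libraries at 1 TPM or more, against 59.0% of protein-coding genes. At 10 TPM or more there were 32 members (38.9% of protein-coding genes), and at 100 TPM or more there were 3 (7.37%). Their median was 17.5 TPM in replicate 1 and 15.1 TPM in replicate 2 (16.3 ± 1.69), above the median of all protein-coding genes (3.91 TPM). Against protein-coding genes detected in both libraries, whose median was 20.1 TPM, 20 of the 48 were higher. The repair genes were thus all detected, and the majority lay below the median of detected genes.

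**Figure D1:**
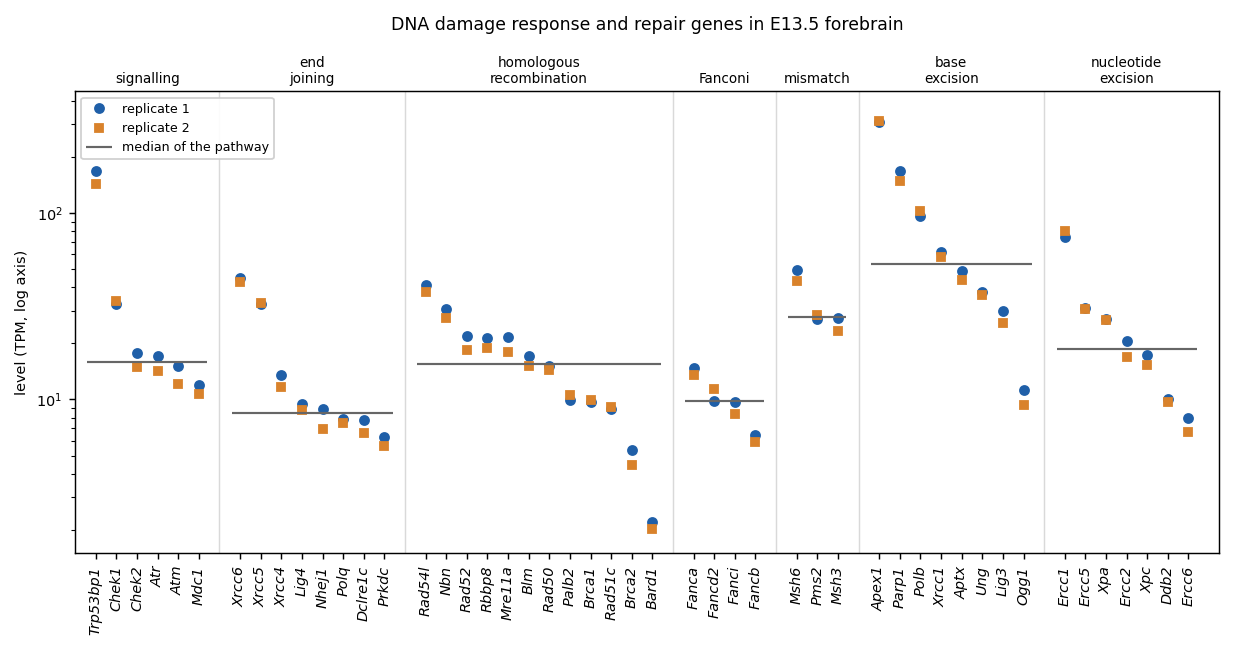
Level of each of the 48 genes in both libraries (TPM, log axis), ordered by pathway and by level; circles are replicate 1, squares are replicate 2 and bars are pathway medians of the mean. Over all transcripts, base excision members had the highest median (53.3 TPM) and end joining members the lowest (8.50 TPM), although over protein-coding transcripts only the Fanconi members were lowest (6.0025 TPM), and Apex1, Parp1 and Trp53bp1 were the 3 genes above 100 TPM in both libraries.

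The 8 base excision members stood highest of the 7 pathways. Their median was 55.4 TPM in replicate 1 and 51.2 in replicate 2, and it exceeded that of the other 40 members by 1.73 ± 0.028 (log2). A list of 14 further base excision genes was lower, with a median of 19.3 TPM. Apex1, the endonuclease that cuts the strand at a site that has lost its base, lies at chr14:50924968-50927139 (mm10) and was the highest of all 48 genes, at 309 and 312 TPM. That level (310.5 ± 2.78) was at the 98.0th percentile of protein-coding genes. Parp1, which senses strand breaks and marks them with poly(ADP-ribose), followed at 168 and 148 TPM. Polb, the polymerase that fills the gap, was at 96.3 and 102 TPM. These 3 genes covered incision, break sensing and gap filling. Their log2 ratios of replicate 2 to 1 were 0.018 for Apex1, −0.18 for Parp1 and 0.086 for Polb.

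The scaffold protein Xrcc1, which gathers the later enzymes, was at 61.9 and 58.4 TPM. Its partner Lig3, the ligase that seals the nick, was lower at 29.9 and 25.6 TPM. The ratio of Xrcc1 to Lig3 was 1.12 ± 0.098 (log2), and that of Parp1 to Xrcc1 was 1.39 ± 0.067. The order Parp1, Xrcc1, Lig3 was therefore the same in both libraries. Aptx, which removes blocked ends left by an abortive ligation, was at 48.9 and 44.0 TPM over all of its transcripts. The glycosylases, which remove the damaged base itself, were lower than Apex1: Ung, which removes uracil, was at 37.7 and 36.2 TPM. Ogg1, which removes oxidised guanine, was the lowest of the pathway at 11.3 and 9.30 TPM.

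Nucleotide excision repair had a median of 20.6 and 16.8 TPM, below base excision repair by 1.46 ± 0.12 (log2). Its highest member over all transcripts was Ercc1, the partner of the nuclease that cuts on the 5' side of the lesion, at 74.8 and 80.2 TPM. Over protein-coding transcripts only, Ercc1 was at 17.9 and 15.7 TPM, below Xpa (22.5 and 21.9 TPM) and Ercc5 (19.85 and 19.02 TPM). Ercc5, the nuclease that cuts on the 3' side, was at 30.8 and 30.7 TPM. Xpa, which holds the opened complex together, was at 27.1 and 26.7 TPM. Both genes hardly differed between libraries. Ercc2, a helicase of the transcription factor TFIIH that opens the DNA, was at 20.6 and 16.8 TPM. The ratio of Ercc2 to Ercc1 was −2.06 ± 0.28 (log2) over all transcripts and −0.023 over protein-coding transcripts only. The damage sensors were lower: Xpc was at 17.3 and 15.2 TPM. Ddb2, the sensor of ultraviolet lesions, was at 10.0 and 9.70 TPM. Ercc6, which acts where a lesion has stalled RNA polymerase, was lowest at 7.92 and 6.72 TPM, although Ddb2 was lower over protein-coding transcripts (3.82 and 3.96 TPM).

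Mismatch repair was represented by 3 genes with a median of 27.2 and 28.5 TPM. Msh6, which recognises base mismatches and short loops, was highest at 49.3 and 43.1 TPM. Msh3, which recognises larger loops with the same partner, was at 27.2 and 23.4 TPM. The ratio of Msh6 to Msh3 was 0.87 ± 0.016 (log2), a 1.83-fold difference with the smallest SD of the 14 pairs compared. Over protein-coding transcripts only, this ratio was 1.58 (log2). Pms2, the nuclease subunit that acts after recognition, was at 27.0 and 28.5 TPM. Over protein-coding transcripts only, Pms2 was at 5.91 and 5.87 TPM, below Msh3 at 16.34 and 14.45 TPM. That Pms2 sum includes a transcript at 1.24 and 1.23 TPM that GENCODE M21 names for another gene (Gm42421-201).

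Among the signalling genes, Trp53bp1 stood far above the others at 167 and 143 TPM. It binds chromatin beside a break and steers it towards end joining, and its gene lies at chr2:121193281-121271407 (mm10). Chek1, the kinase that acts downstream of Atr at stalled replication forks, was at 32.6 and 33.8 TPM. Chek2, the kinase downstream of Atm at breaks, was at 17.8 and 14.9 TPM, a ratio of Chek1 to Chek2 of 1.03 ± 0.22 (log2). Both values of Chek1 lay above both of Chek2 when all transcripts were counted. The sensor kinases were alike: Atr was at 17.0 and 14.2 TPM. Atm was at 15.2 and 12.1 TPM, a log2 ratio of Atr to Atm of 0.20 ± 0.048, with the higher Atm value above the lower Atr value. Mdc1, the adaptor that binds phosphorylated H2AX, was the lowest of the 6 at 11.9 and 10.7 TPM. Over protein-coding transcripts only, its mean of 11.3 TPM was above those of Chek1 (9.26), Atm (5.27) and Atr (4.49).

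The end joining members had the lowest median of the 7 pathways over all transcripts, at 9.14 and 8.14 TPM, which was −1.06 ± 0.072 (log2) against the other 40 members. This rank did not hold under every setting. Over protein-coding transcripts only, the contrast was −0.66, and the Fanconi members were lower (6.0025 against 8.50 TPM). With means in place of medians, it was −0.81 for end joining and −1.07 for Fanconi. Its 2 highest genes were the subunits of the Ku ring that loads onto broken ends. Xrcc6 (Ku70) was at 45.0 and 42.4 TPM. Xrcc5 (Ku80) was at 32.4 and 32.8 TPM, a log2 ratio of Xrcc5 to Xrcc6 of −0.42 ± 0.074. The subunits of this heterodimer were within 1.5-fold of each other in both libraries. Prkdc, the catalytic kinase that Ku recruits, was the lowest of the pathway at 6.25 and 5.66 TPM, and Xrcc6 was 7.35-fold higher (2.88 ± 0.042 on the log2 scale). Over protein-coding transcripts only, that log2 ratio was 3.76, and Polq (2.54 and 2.36 TPM) was below Prkdc (3.18 and 2.93 TPM).

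The ligation complex of end joining was low as a group. Xrcc4 was at 13.6 and 11.6 TPM, and its partner ligase Lig4 at 9.42 and 8.81 TPM, with a log2 ratio of 0.47 ± 0.090. Nhej1, which bridges the ends with Xrcc4, was at 8.86 and 6.92 TPM. Dclre1c, the nuclease that opens hairpin ends, was at 7.79 and 6.58 TPM. Polq, the polymerase of the alternative route that uses short homologies, was at 7.87 and 7.47 TPM. Outside Ku, all values of the pathway lay between 5.66 and 13.6 TPM.

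The homologous recombination genes had a median of 16.1 and 14.7 TPM, above that of end joining by 0.77 ± 0.023 (log2). This lead was 0.23 over protein-coding transcripts only and 0.11 with means in place of medians. The highest was Rad54l, a motor protein that acts on the recombining strands, at 41.0 and 37.6 TPM. The complex that first processes the break was spread over the range: Nbn, second in the pathway, was at 30.6 and 27.3 TPM. Mre11a, its nuclease, was at 21.5 and 17.97 TPM. Rad50, which tethers the ends, was at 15.2 and 14.4 TPM. Relative to Rad50, Nbn was higher by 0.96 ± 0.065 and Mre11a by 0.41 ± 0.13 (log2), an order Nbn, Mre11a, Rad50 seen in both libraries. Rbbp8 (CtIP), which starts end resection with this complex, was at 21.3 and 18.9 TPM.

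Rad52, which anneals single strands, was at 21.9 and 18.4 TPM. Blm, the helicase that dissolves joint molecules, was at 17.1 and 15.1 TPM. The proteins that load the recombinase were lower. Palb2 was at 9.96 and 10.5 TPM, and Brca2, which it recruits, at 5.36 and 4.43 TPM, a log2 ratio of Brca2 to Palb2 of −1.07 ± 0.25. Brca1 was at 9.71 and 9.89 TPM. Its obligate partner Bard1 (chr1:71027498-71103146, mm10) was at 2.21 and 2.03 TPM, the lowest of all 48 genes over all transcripts. On that measure it was the only one below the 50th percentile of protein-coding genes, at the 45.1st. Brca1 was 4.63-fold above Bard1, with a log2 ratio of 2.21 ± 0.11. Rad51c, a recombinase paralogue, was at 8.92 and 9.12 TPM. Over protein-coding transcripts only, Rad51c was at 0.94 and 1.56 TPM, below Bard1.

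The Fanconi anaemia pathway, which unhooks cross-links between the strands, had a median of 9.73 and 9.86 TPM. Fanca and Fancb belong to the core complex that attaches ubiquitin: Fanca was at 14.8 and 13.5 TPM, and Fancb, on the X chromosome, was lowest at 6.46 and 5.94 TPM. Over protein-coding transcripts only, Fancb (mean 6.20 TPM) was above Fancd2 (5.81) and Fanca (5.56). The targets of that complex were alike over all transcripts, with Fancd2 at 9.83 and 11.3 TPM. Fanci was at 9.63 and 8.38 TPM. Their log2 ratio of 0.23 ± 0.29 over all transcripts was smaller than its own SD, with 0.030 in replicate 1 and 0.44 in replicate 2. Over protein-coding transcripts only, the ratio of Fancd2 to Fanci was −0.41 ± 0.039, with Fanci higher.

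Many of these genes start next to another gene. In 17 of 48 (35.4%), the start of a protein-coding gene on the other strand lay within 1 kb, against 10.9% of all protein-coding genes and 16.0% of those at 1 TPM or more in both libraries. Within 500 bases there were 17 (8.93% of all protein-coding genes) and within 2 kb 18 (12.2%). The starts pointed apart in 14 pairs and overlapped in 3, among them Xrcc4 with Tmem167 and Mre11a with Ankrd49, and the median distance was 171 bases. The stretches between the starts of 5 pairs are shown whole, since the levels of these pairs are described next. They are RefSeq sequences of GRCm38.p6, written 5' to 3' on the strand of the repair gene and running towards its start, with capitals marking a CCAAT box on either strand or, in Chek2, also the E2F-type match GCGGGAAA; no matches overlapped.
Chek2 and Hscb, chr5:110839778-110839978, plus strand: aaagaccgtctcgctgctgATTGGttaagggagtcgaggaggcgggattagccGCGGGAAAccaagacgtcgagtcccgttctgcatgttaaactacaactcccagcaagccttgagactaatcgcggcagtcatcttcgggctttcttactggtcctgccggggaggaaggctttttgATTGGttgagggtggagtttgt
Brca1 and Nbr1, chr11:101551956-101552148, minus strand: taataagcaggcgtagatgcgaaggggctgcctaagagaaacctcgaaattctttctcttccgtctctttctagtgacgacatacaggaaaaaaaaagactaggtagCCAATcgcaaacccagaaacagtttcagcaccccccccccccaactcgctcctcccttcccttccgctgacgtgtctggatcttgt
Palb2 and Dctn5, chr7:122132986-122133040, minus strand: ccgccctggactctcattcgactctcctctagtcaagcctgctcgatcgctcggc
Rad54l and Pomgnt1, chr4:116123691-116123839, minus strand: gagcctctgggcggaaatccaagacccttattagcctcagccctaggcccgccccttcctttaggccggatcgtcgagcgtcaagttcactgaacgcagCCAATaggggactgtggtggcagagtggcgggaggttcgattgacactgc
Apex1 and Osgep, chr14:50924894-50924967, plus strand: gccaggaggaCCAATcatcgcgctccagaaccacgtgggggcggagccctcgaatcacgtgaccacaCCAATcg

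Genes that share such a stretch were far apart in level in some pairs and alike in others. The neighbour was the higher gene in both libraries in 11 pairs and the repair gene in 6. Brca1 (9.71 and 9.89 TPM) lay beside Nbr1, an autophagy receptor gene, at 98.9 and 85.9 TPM. Palb2 lay 56 bases from the start of Dctn5, a dynactin subunit gene, at 125 and 115 TPM. Prkdc lay 466 bases from Mcm4, a subunit of the replicative helicase, at 83.5 and 70.7 TPM. In these 3 pairs the repair gene was the low partner in both libraries. The reverse held for Apex1, where Osgep, a tRNA-modifying enzyme gene, was at 139 and 124 TPM. Pairs of like level were Rad54l with Pomgnt1 (45.6 and 43.4 TPM), Atm with Npat (14.1 and 11.2 TPM) and Chek2 with Hscb (13.1 and 13.9 TPM). Of the 17 neighbours, 15 were at 1 TPM or more in both libraries. The exceptions were Tex14 beside Rad51c, at 0.36 and 0.090 TPM, and Pinlyp beside Xrcc1, listed at 0 in both libraries.

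**Figure D2:**
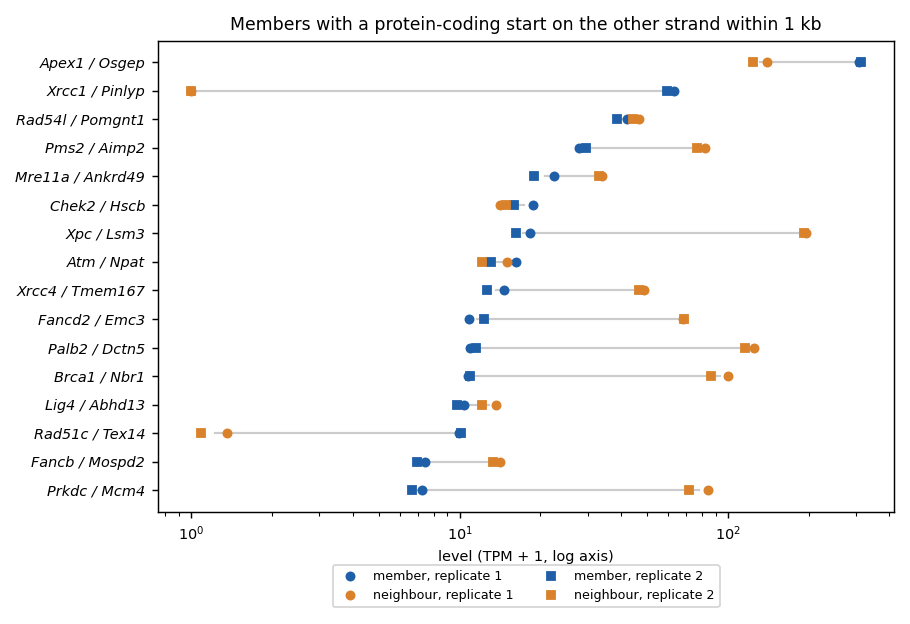
Level of 16 of the 17 repair genes and of the neighbour whose start lies within 1 kb on the other strand (TPM + 1, log axis); blue marks the repair gene, orange its neighbour, circles replicate 1 and squares replicate 2. Of the 16 pairs plotted, the neighbour was higher in both libraries in 11 and the repair gene in 5, among them Apex1 and Xrcc1.

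Promoter windows of 300 bases, from 250 before to 50 after the start, were present for 40 of the 48 genes in RefSeq. The spellings of an E2F-type site searched on both strands were TTTCCCGC, TTTCGCGC, TTTGCCGC and TTTGGCGC. E2F factors drive genes at the start of DNA replication. A match was found in 8 of 40 windows (20%), those of Chek2, Mdc1, Xrcc6, Brca2, Bard1, Rad51c, Msh3 and Msh6, against 3.34% of 16317 protein-coding windows and 4.70% of 9920 windows of genes detected in both libraries. The NRF1 motif, a palindrome, was found in 2 (Lig4 and Ercc6, 5%) against 1.53% of all windows. The shorter CCAAT, searched on both strands after the sequences had been seen, was in 22 of 40 (55%) against 42.0%. It was in 10 of 14 windows of genes with a close neighbour (71.4%) and in 12 of 26 of the others (46.2%), against 44.2% of 1879 windows of all genes with a close neighbour. A match describes letters and not binding. Over all transcripts, the 8 genes with an E2F-type match ranged from Bard1, the lowest gene of all, to Msh6.

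Most gene totals sum several annotated transcripts, some of which do not encode a protein. The 48 genes had 282 transcripts, 8 genes having only 1 and Trp53bp1 having the most with 19. Transcript classes are those of GENCODE M21, while the tables were built on M4, and 2 transcripts were not in M21. Those 2 have no class and were counted outside the protein-coding ones. The median share of a gene's TPM in protein-coding transcripts was 87.3%. It was 82.2% over the 40 genes with 2 or more transcripts, against 91.3% over all genes with 2 or more. The whole share was protein-coding, to within 0.5 percentage points, in 17 genes. Among them were the 8 with only 1 transcript, where the annotation fixes this. The same share over all protein-coding genes is not given here, so this count does not set the members apart. In 13 of the 40 genes with 2 or more transcripts (32.5%), protein-coding transcripts made up less than 50% in both libraries, against 10.8% of all genes with 2 or more transcripts and a mean count of at least 10. Signalling held 4 of these 13 (Atm, Atr, Chek1 and Trp53bp1), homologous recombination 3 (Palb2, Rad51c and Rad52) and nucleotide excision repair 2 (Ercc1 and Ddb2). The others were Polq, Fanca, Pms2 and Aptx.

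**Figure D3:**
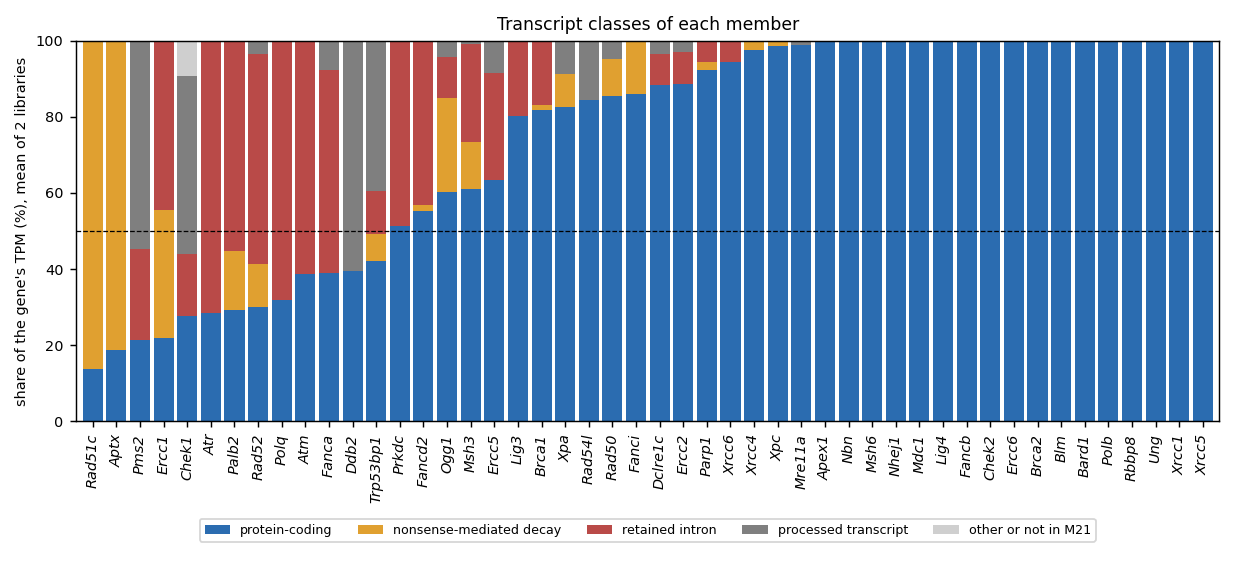
Share of each gene's TPM by transcript class (%, mean of 2 libraries), ordered by the protein-coding share; the dashed line marks 50%. Rad51c and Aptx had the lowest protein-coding shares and most of their TPM in transcripts classed as nonsense-mediated decay.

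The kind of non-coding transcript differed by gene. Retained-intron transcripts, which keep an intron that the spliced message lacks, held 71.5% of Atr, 68.1% of Polq and 61.3% of Atm. The Atr gene had 1 protein-coding transcript, Atr-201 (8074 bases), at 5.21 and 3.76 TPM, and its retained-intron transcripts were all shorter. Nonsense-mediated decay transcripts, which carry an early stop, led in Aptx and Rad51c. Aptx-205 held 77.9% and 79.5% of its gene, and Rad51c-204 70.4% and 67.4%. In Ercc1, the retained-intron transcript Ercc1-202 (39.9% and 40.1%) exceeded each protein-coding one. In Chek1 the leading transcript was Chek1-207, a processed transcript without an annotated reading frame, at 42.1% and 36.7%. A transcript that was not protein-coding led in both libraries in 10 of 40 genes (25%), against 9.33% of all such genes. None of the 40 genes had a leading transcript that differed between libraries. The share of all such genes with a differing one is not given here.

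Weighting by reads rather than by TPM gave another picture, since TPM credits a short transcript with more molecules per read. By expected counts the median protein-coding share was 93.8%. It was 88.2% over the 40 genes with 2 or more transcripts, against 96.5% over all such genes with a mean count of at least 10. Under 50% of counts in both libraries were 7 of these 40 (17.5%), against 5.91% of all such genes. Of the 13 genes above, 5 passed 50% of counts in both libraries: Atm (85.2%), Trp53bp1 (77.9%), Polq (72.7%), Fanca (65.6%) and Atr (62.5%). The low shares of Rad51c (22.8%), Ercc1 (24.1%), Pms2 (28.5%), Ddb2 (35.6%), Chek1 (38.5%), Rad52 (43.7%) and Aptx (45.1%) did not rest on this choice. Palb2 lay at the limit, with 54.7% and 47.1%.

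Several genes moved far down when only protein-coding transcripts were summed. Ercc1 went from the top of its pathway to 17.9 and 15.7 TPM, level with Ercc2 at 17.6 and 15.5 TPM (log2 ratio −0.023). Trp53bp1 remained the highest signalling gene, at 70.0 and 61.1 TPM. Chek1 dropped to 6.12 and 12.4 TPM, below Chek2 in both libraries, and Rad51c to 0.94 and 1.56 TPM, the only member under 1 TPM in a library. With protein-coding transcripts only, 47 of 48 genes were at 1 TPM or more in both libraries, against 57.2% of protein-coding genes. The order of the mean ratio turned in 4 of 14 partner pairs. These were Chek1 to Chek2 (log2 ratio −0.90 ± 0.90), Atr to Atm (−0.25 ± 0.15), Fancd2 to Fanci (−0.41 ± 0.039) and Brca2 to Palb2 (0.70 ± 0.099). The ratio of Chek1 to Chek2 was thus about as large as its own SD. The lead of base excision over the other members grew to 2.21.

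**Figure D4:**
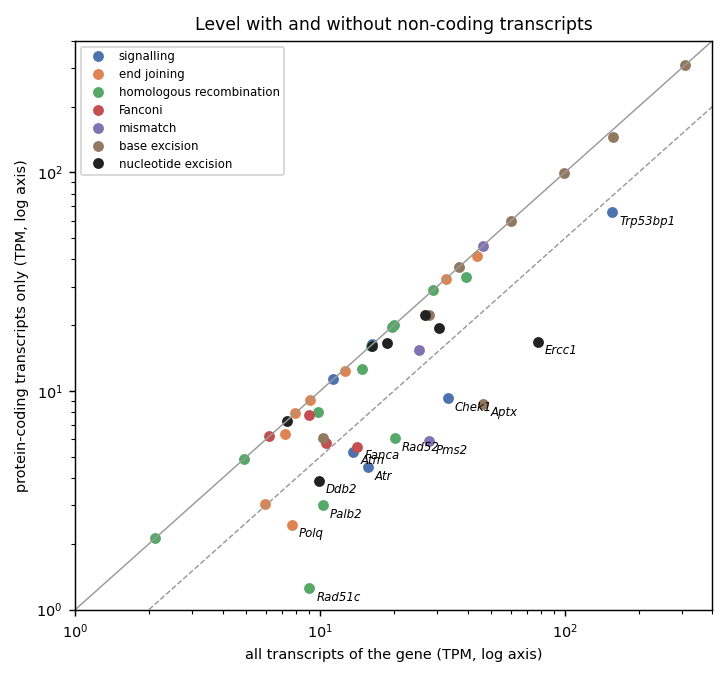
Level of each gene over all transcripts against its level over protein-coding transcripts only (TPM, both axes log, means of 2 libraries), coloured by pathway; the solid line marks equal levels and the dashed line 50%. The named genes lie below 50%, with Rad51c, Ercc1, Aptx and Pms2 among the farthest from the solid line.

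The transcripts of Ung, Brca1, Lig3, Ogg1, Rad52 and Polb are described 1 by 1, and how often 1 protein-coding form leads over all members was not counted. Ung encodes a mitochondrial and a nuclear enzyme from alternative first exons. Its transcripts Ung-201, Ung-202 and Ung-203 were at 28.2, 7.34 and 2.16 TPM in replicate 1 and at 26.0, 7.09 and 3.04 in replicate 2. Brca1-201 held 82.0% and 71.4% of its gene, and a small protein-coding transcript of 355 bases was at 0 and 1.00 TPM. Lig3-211 held 62.8% and 60.5%. Ogg1-201 held 52.1% and 68.5%, beside the nonsense-mediated decay transcript Ogg1-203 at 22.3% and 27.2%. The leading transcript of Rad52 held only 32.0% and 22.2%. Polb had a single transcript, Polb-201. The leading shares of Ung and Lig3 differed less between libraries than those of Ogg1, Brca1 and Rad52.

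The libraries gave like levels for these genes, as for most genes. None of 48 differed by 1.5-fold or more, against 2.06% of 14553 genes with a mean count of at least 10 and 1.03% of 10785 genes in the members' range of counts. With shares this low, the absence of such a member does not set these genes apart. The median absolute deviation of the log2 ratio was 0.108 for the members, 0.101 for all genes and 0.0913 in the members' range of counts. The largest differences were in Nhej1, with 188 and 160 counts and a log2 ratio of replicate 2 to 1 of −0.32, and in Atm, with 1351 and 1099 counts and −0.30. Ercc2 (−0.28), Ogg1 (−0.25) and Mre11a (−0.25) followed. On the other side were Fancd2 (0.19), Ercc1 (0.099), Polb (0.086), Pms2 (0.079) and Palb2 (0.069).

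The direction of these differences depended on the scale. By TPM, 38 of 48 members were lower in replicate 2, but so were 73.8% of all genes, and the medians were −0.13 for the members and −0.10 for all genes. After TMM scaling of the counts (the trimmed mean method of edgeR), 27 were lower and 21 higher, with medians of −0.020 and 0.0019. The TMM factors were 0.9995 and 1.0005, so these values are close to those of unscaled counts. Ogg1 then turned to 0.076 and Pms2 to −0.049, while Atm stayed at −0.30 and Polb rose to 0.21. With protein-coding transcripts only, 1 member passed 1.5-fold, Chek1, whose Chek1-205 went from 1.13 to 5.85 TPM while a transcript that was not in M21 went from 4.86 to 1.15 TPM. The latter has no class and was left out of the protein-coding sum, and the call depends on that choice.

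**Figure D5:**
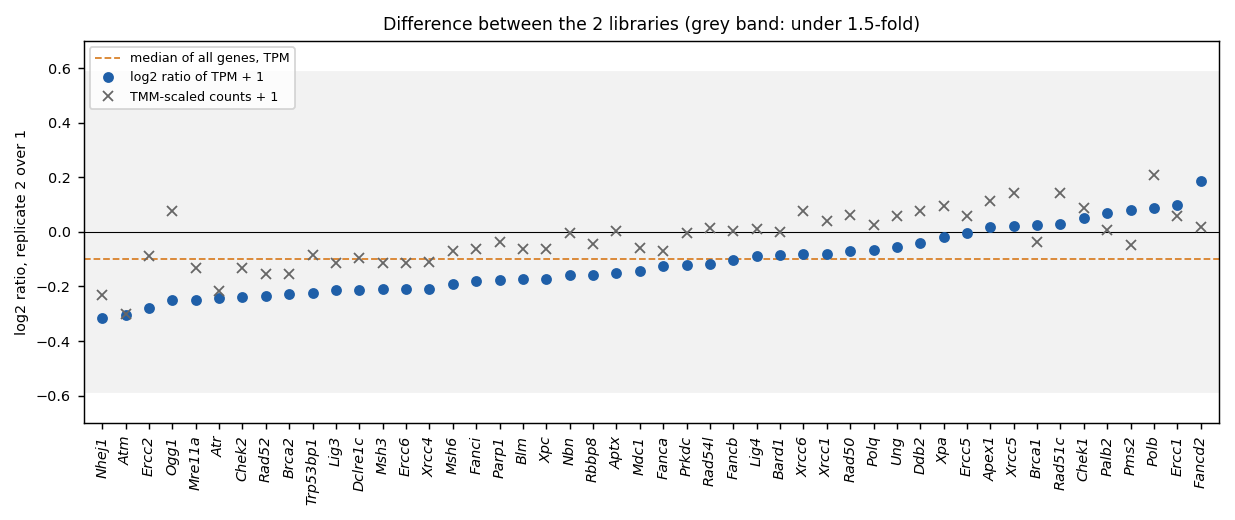
Log2 ratio of replicate 2 to replicate 1 for each gene, from TPM + 1 (circles) and from TMM-scaled counts + 1 (crosses); the dashed line is the median of all genes by TPM and the grey band marks differences under 1.5-fold. All 48 genes lie inside the band on both scales, and the TPM ratios run from −0.32 (Nhej1) to 0.19 (Fancd2).

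The other genes of the same pathways were detected almost as widely. Of 86 further repair genes, 83 were at 1 TPM or more in both libraries, and their median was 20.5 TPM. In signalling, 18 of 18 were detected, with H2afx, the histone variant phosphorylated at breaks, at 332 and 325 TPM and Tipin, a fork protector, at 167 and 162 TPM. In homologous recombination, 20 of 20 were detected, led by the recombinase cofactors Swi5 at 393 and 387 TPM and Sfr1 at 198 and 204 TPM. In nucleotide excision repair all 17 were detected, led by Ddb1, the partner of Ddb2, at 252 and 213 TPM and the TFIIH subunit Gtf2h5 at 164 and 184 TPM. The partner of a low member could thus be high: Ddb1 exceeded Ddb2 in both libraries.

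Base excision repair had 12 of 14 further genes detected, led by the thymine glycosylase Tdg at 222 and 198 TPM and by Tdp1 at 68.2 and 62.8 TPM, with Neil2 and Parp3 under 1 TPM. End joining had 5 of 6, among them Paxip1 at 20.3 and 16.6 TPM. Its exception was Dntt, the polymerase that adds bases during lymphocyte receptor assembly, at 0.050 and 0.080 TPM. The Fanconi list had 9 of 9, led by the deubiquitinase Usp1 at 84.8 and 94.8 TPM and the ubiquitin-conjugating enzyme Ube2t at 39.2 and 39.8 TPM. Both further mismatch genes, Pms1 and Mlh3, were detected, at 16.8 and 14.3 TPM and at 7.73 and 5.86 TPM. The medians of these lists ordered the pathways differently from the members. Nucleotide excision (48.3 TPM) and signalling (41.0) were highest, followed by base excision (19.3), Fanconi (17.6) and homologous recombination (15.5). Mismatch repair (11.2) and end joining (10.2) were lowest.

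A list of genes for meiosis gave a contrast. Only 1 of 8, Msh5, was at 1 TPM or more in both libraries, at 4.91 and 3.71 TPM. Dmc1, the meiotic recombinase, was at 1.01 and 0.73 TPM, and Sycp1 and Hormad1 were listed at 0. The replication genes were all detected (18 of 18), with a median of 75.8 TPM and with Mcm7 at 232 and 211 TPM and Mcm6 at 165 and 141 TPM. Of 15 effector genes that damage signalling can induce, for cell cycle arrest or apoptosis, all were detected, with a median of 25.4 TPM. Bax, which permeabilises mitochondria, was at 187 and 207 TPM, and Btg2 at 108 and 100.1 TPM.

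Reads of overlapping genes limit some of these values, because the sources used here do not say if the counting was strand-specific. A gene on the other strand overlapped 27 of the 48, against 36.9% of protein-coding genes, and a protein-coding one overlapped 18, against 16.7%. Where the overlap was long, as for Xrcc6 with Desi1 (41340 bases) and Fanca with Gm20388 (50277 bases), reads in shared exons may have been divided by the estimate. Counts were whole numbers in both libraries for 31 members and fractional for 17. The members' counts in a library ranged from 160 to 11883, so counting error was largest for Nhej1 and Bard1.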

How the data were processed

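Total RNA from 2 forebrain samples was quantified by the authors per gene and per transcript on mm10 with GENCODE M4, per the deposited metadata. The aligner, quantifier version, read length and strand setting were not given in the sources used here. Deposited expected counts are the authors' estimates, in which shared reads are divided between features. The deposited TPM and FPKM values are scaled by effective length and depth. Symbols, classes and coordinates came from GENCODE M21 (GRCm38) by identifier: 42462 mouse genes matched and 884 did not. The members and lists were chosen with earlier results of these data known. Every member is described, with both library values for the highest 4 and the lowest of each pathway and for each pair. Ratios used a pseudocount of 1. Counts, rounded to whole numbers, were scaled with edgeR 4.0.16 (TMM) or DESeq2 1.42.0 (size factors), checked on simulated data. Alternatives were another pseudocount, count minimum, TPM estimate or scaling, FPKM, protein-coding transcripts only, means for medians, and each library alone. Motifs and promoter windows used RefSeq. Both replicates carry their number in the labels. Values of some companion and neighbouring genes are not reported here.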

Additional observations from a re-analysis of the deposited data

How the results depend on the processing

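No paired analysis was possible because the samples form 1 group. With 2 libraries, no result has a test. With 1 library left out, the median level ran from 15.1 to 17.5 TPM and the median protein-coding share from 84.9 to 89.4%. With protein-coding transcripts only, the median level was 11.8 TPM, homologous recombination minus end joining 0.23, base excision minus the others 2.21 and the median library ratio −0.13. In this setting 1 gene, Chek1, passed 1.5-fold, a call that depends on leaving out its transcript without a class. This setting reversed Brca2 to Palb2 (0.70 ± 0.099), Fancd2 to Fanci (−0.41 ± 0.039), Chek1 to Chek2 (−0.90 ± 0.90) and Atr to Atm (−0.25 ± 0.15). These were 4 of the 14 pairs. None of the other recomputed partner ratios reversed, of 84 in all, but most of those settings could hardly turn a ratio. Rescaled TPM leaves a ratio within a library unchanged, FPKM nearly so, and leaving out a library only restates the other. With TPM rescaled over protein-coding genes, the median level was 20.3 TPM and the library ratio −0.10. With a pseudocount of 0.1, homologous recombination minus end joining was 0.83, base excision minus the others 1.79 and the library ratio −0.15. With means for medians these contrasts were 0.11 and 1.83, and signalling minus the others reversed to 0.32. With posterior mean TPM, base excision minus nucleotide excision was 1.33, base excision minus the others 1.69, the library ratio −0.13 and the protein-coding share 82.5%. The library ratio was −0.020 with TMM and −0.018 with size factors. The factors of the 2 libraries were 0.9995 and 1.0005 with TMM and 1 and 1 with size factors. Both settings thus left the counts nearly or fully unscaled and are not separate checks. The protein-coding share of counts, 93.8%, was chosen after seeing the data. The cause was not tested for shifts other than those built into the setting.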
